A study of Mus musculus with 4 samples.

Results

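Lmx1b, Wnt7a and En1, the genes that set the dorsal-ventral axis of the limb bud, were examined by ATAC-seq (assay for transposase-accessible chromatin with sequencing) in posterior forelimb buds of wild-type (WT) and Shh-/- mouse embryos. In this assay the Tn5 transposase inserts sequencing adapters into open chromatin, and stretches with many insertions are called as peaks. The members were all peaks of the 4 deposited peak lists that overlapped the body of 1 of the 3 genes or the 100 kb on either side of it (GENCODE M21, mm10). Peaks of different libraries were joined into 1 region where they shared at least 1 bp, and the 3 windows held 75 of the 44692 regions of the series, with 55 in the Lmx1b window, 17 in the Wnt7a window and 3 in the En1 window.

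The 4 libraries came from 2 WT and 2 Shh-/- embryos at E10.5 (35 somites), with 1 embryo per library. All were of Swiss Webster background, and the Shh-/- embryos carried a null allele of Shh in every cell and so lacked Sonic hedgehog (SHH), which activates the Hedgehog (HH) pathway. No agent was given, and each reaction took 5000 cells of the whole posterior fraction, so that mesenchyme and ectoderm were not separated by a sort that the sources describe. Libraries are named by genotype and replicate number (WT rep1, WT rep2, Shh-/- rep1 and Shh-/- rep2). The lists held 39080 peaks in WT rep1, 11973 in WT rep2, 5589 in Shh-/- rep1 and 18459 in Shh-/- rep2. A list holds no read counts, so the depth of a library is unknown from it, and a peak absent from a list is an absent call, not proof of closed chromatin.

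The dorsal-ventral axis of the limb is set by the ectoderm that covers the bud. WNT7A, a secreted WNT ligand made by dorsal ectoderm, induces the LIM homeodomain transcription factor LMX1B in the dorsal mesenchyme beneath it, and LMX1B gives that mesenchyme its dorsal character. EN1 (Engrailed 1), a homeodomain repressor that depends on BMP signaling in ventral ectoderm, keeps Wnt7a off on the ventral side. WNT7A also helps to maintain Shh expression in the posterior mesenchyme, which links this axis to the anterior-posterior axis that SHH patterns. Lmx1b is therefore a gene of the mesenchyme, the bulk of the bud, while Wnt7a and En1 are genes of the thin ectodermal layer. In a bulk sample, fewer cells of a type and less accessible chromatin per cell cannot be told apart.

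The promoters of the 3 genes are shown first, because the calls at them differed from gene to gene. Sequences are from RefSeq (GRCm38.p6, the assembly of mm10), written 5′ to 3′ on the strand of the gene, with CpG dinucleotides in capitals. Each begins 250 bases before the RefSeq start, and bases that an annotated transcript of the gene covers were left out. The Lmx1b sequence is chr2:33641209-33641348 (minus strand), the Wnt7a sequence is chr6:91411364-91411603 (minus strand) and the En1 sequence is chr1:120602237-120602417 (plus strand).
Lmx1b promoter: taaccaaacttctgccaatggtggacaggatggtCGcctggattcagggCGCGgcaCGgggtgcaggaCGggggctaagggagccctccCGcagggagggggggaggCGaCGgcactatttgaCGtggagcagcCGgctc
Wnt7a promoter: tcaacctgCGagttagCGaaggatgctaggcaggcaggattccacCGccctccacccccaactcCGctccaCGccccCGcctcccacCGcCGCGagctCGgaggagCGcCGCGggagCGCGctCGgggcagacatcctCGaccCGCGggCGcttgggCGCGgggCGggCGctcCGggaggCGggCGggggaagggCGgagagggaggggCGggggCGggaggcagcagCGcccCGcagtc
En1 promoter: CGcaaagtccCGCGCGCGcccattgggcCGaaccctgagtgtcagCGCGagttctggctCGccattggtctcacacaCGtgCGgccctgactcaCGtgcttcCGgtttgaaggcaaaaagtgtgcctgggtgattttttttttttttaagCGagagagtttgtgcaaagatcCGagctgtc
Over the whole 250 bases, the Wnt7a promoter held 34 CpG dinucleotides at a GC content of 77.6%, more CpG than 96.5% of the 32841 RefSeq promoters of that length. The Lmx1b promoter held 19 CpG at 65.2% GC and the En1 promoter held 19 CpG at 56% GC, each more than 80.3% of promoters. The median promoter held 6 CpG at 52.4% GC. The 250 bases of Lmx1b overlapped a peak in WT rep1 and in Shh-/- rep2, while those of Wnt7a and of En1 overlapped a peak in 0 of 4 libraries.

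Away from the promoters, 4 regions of the Lmx1b window were called in 3 or 4 libraries. They are shown because they were the distal regions of the 3 windows called in most libraries. Each sequence is 200 bases centred on the summit of its best peak, on the plus strand, with matches to the searched motifs in capitals. The region beyond the 3′ end of the gene is chr2:33544320-33544519, the region in intron 2 is chr2:33595028-33595227, the nearer upstream region is chr2:33700799-33700998 and the farther upstream region is chr2:33705910-33706109.
Beyond the 3′ end: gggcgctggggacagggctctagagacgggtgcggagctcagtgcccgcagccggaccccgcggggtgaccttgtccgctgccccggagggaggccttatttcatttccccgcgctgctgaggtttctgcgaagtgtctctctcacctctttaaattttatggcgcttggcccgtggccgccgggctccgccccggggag
Intron 2: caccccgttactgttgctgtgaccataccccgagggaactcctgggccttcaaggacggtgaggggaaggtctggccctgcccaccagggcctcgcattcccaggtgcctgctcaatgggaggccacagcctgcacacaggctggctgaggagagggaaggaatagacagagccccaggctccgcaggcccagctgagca
Nearer upstream: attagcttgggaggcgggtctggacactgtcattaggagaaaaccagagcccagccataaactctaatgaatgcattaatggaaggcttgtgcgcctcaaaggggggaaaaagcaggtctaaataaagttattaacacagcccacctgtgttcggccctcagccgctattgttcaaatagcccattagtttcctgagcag
Farther upstream: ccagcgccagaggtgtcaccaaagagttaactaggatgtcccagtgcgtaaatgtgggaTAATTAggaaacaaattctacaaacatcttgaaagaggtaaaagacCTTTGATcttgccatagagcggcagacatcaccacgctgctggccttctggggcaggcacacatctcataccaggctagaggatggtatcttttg
The GC content was 47.5% in both upstream sequences, 64.5% in the intron and 67% beyond the 3′ end. Summits of different libraries lay up to 117 bp apart beyond the 3′ end and 230 bp apart in intron 2. They lay up to 202 bp apart in the nearer and 294 bp apart in the farther upstream region. No printed sequence therefore holds the summits of all libraries that called its region.

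Peaks were compared by their rank within their own list, by the deposited score, with the highest score first. A rank divided by the length of the list is given as a percentage, so that a low percentage is a strong peak for that library. This percentage moves with the length of the list as well as with the peak, so ranks and percentages are given together and are not a test between libraries. Many peaks share a score, and tied peaks were ordered by position.

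Lmx1b covers chr2:33560965-33640511 on the minus strand, 79.5 kb with 8 exons. Its window held 52 peaks in WT rep1, 3 in WT rep2, 3 in Shh-/- rep1 and 14 in Shh-/- rep2. Peaks that touched the gene body itself numbered 24, 1, 1 and 6 in the same order, so the gene was called as accessible somewhere in all 4 libraries. The 55 regions of the window lay mainly away from promoters, with 20 in introns, 17 between genes, 11 in exons and 7 (12.7%) at promoters of Lmx1b or its neighbours. Of all regions of the series, 39.2% were at promoters.

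**Figure D1:**
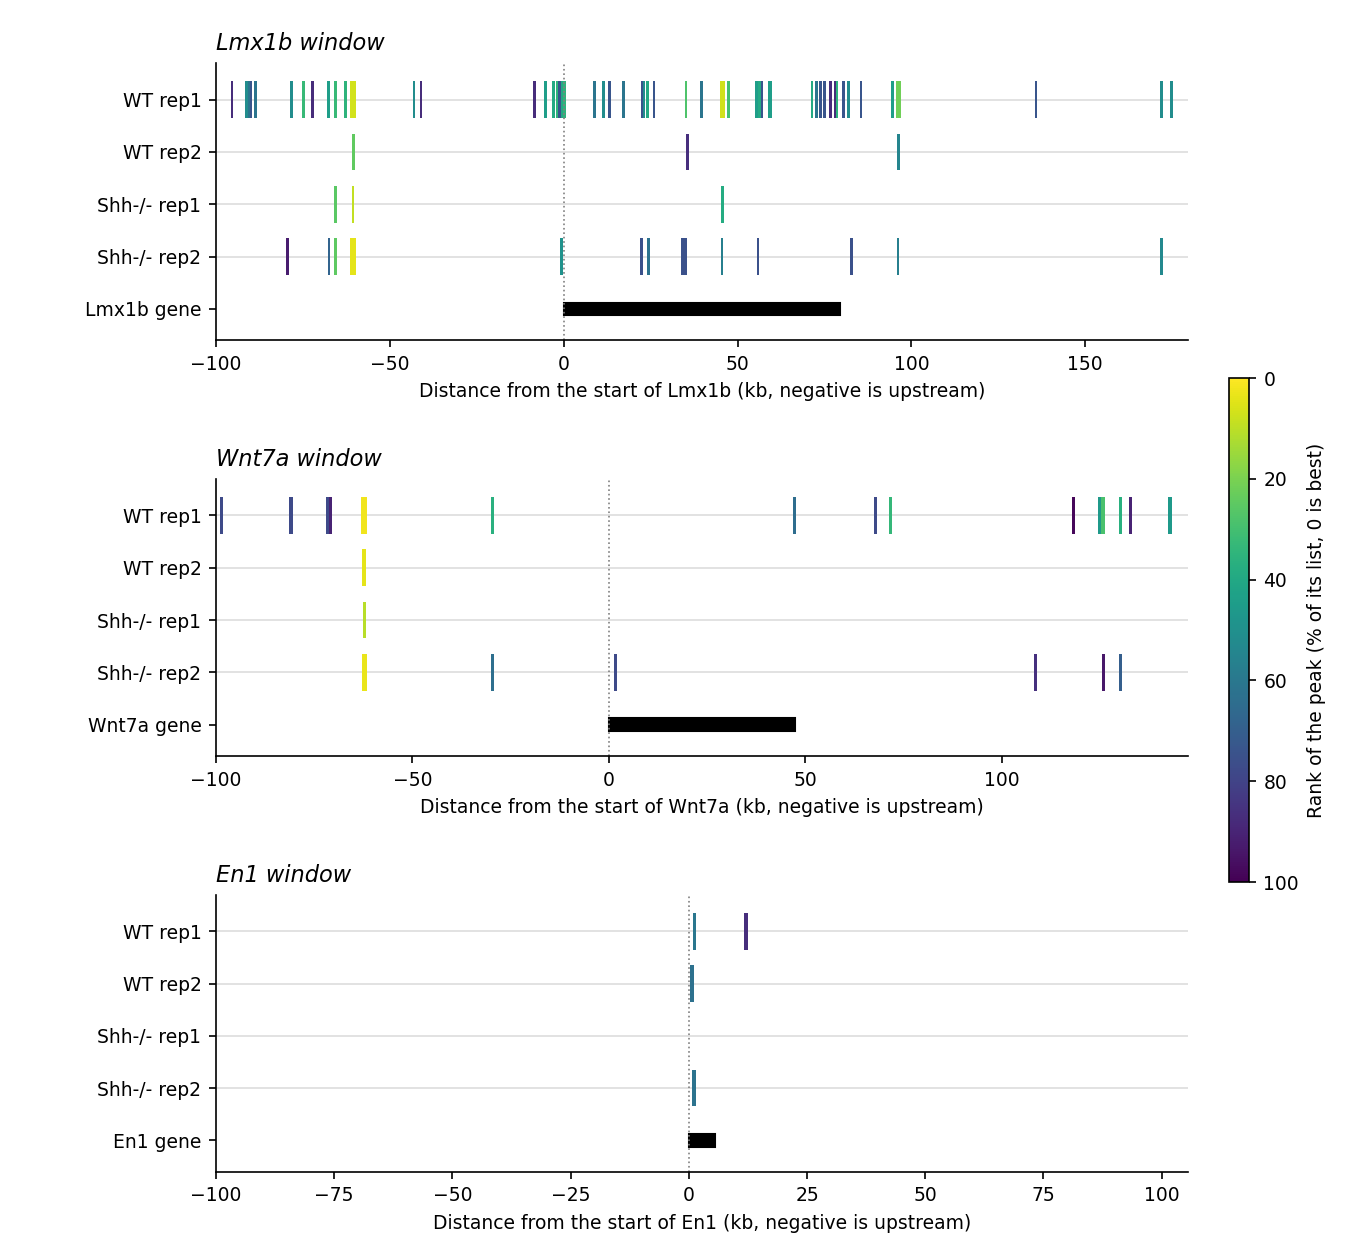
Peaks in the windows of Lmx1b, Wnt7a and En1 by library, against the distance from the start of the gene in kb (negative is upstream). Each bar is a peak, drawn at least 0.8 kb wide and coloured by its rank as a percentage of its list, and the black bar is the gene. The Lmx1b window is filled with 52 peaks in WT rep1 and has 3 peaks in WT rep2, and the En1 window has no peak in Shh-/- rep1.

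The strongest Lmx1b call was between genes. The nearer upstream region (chr2:33700288-33701977), 60.4 kb before the start of Lmx1b, was called in 4 of 4 libraries. It ranked 2622 in WT rep1, 2925 in WT rep2, 514 in Shh-/- rep1 and 761 in Shh-/- rep2, which are 6.71%, 24.4%, 9.20% and 4.12% of the lists. By rank it stood higher in both Shh-/- lists than in both WT lists. By percentage it stood highest in the list of Shh-/- rep2 and lowest in that of WT rep2, and on that measure the genotypes overlapped. Neither order was tested. The 4 summits lay within 202 bp of each other, and the peaks were 1690, 844, 853 and 1565 bp wide. Of the 8646 regions between genes in the series, 235 (2.72%) were called in all 4 libraries, and this region was in place 30 of those by its mean percentage of 11.1, against a median of 30.4.

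The farther upstream region (chr2:33705792-33706604), 65.5 kb before the start, was called in 3 libraries. It ranked 12702 (32.5%) in WT rep1, 1434 (25.7%) in Shh-/- rep1 and 4602 (24.9%) in Shh-/- rep2, and it was not called in WT rep2. With each list limited to its 5589 best peaks, the length of the shortest list, both Shh-/- lists and neither WT list held it. At that list length it was 1 of the 4 regions left in the 3 windows. Of all 9283 regions, 3.3% were Shh-specific in this way and 3.73% were WT-specific, and 1 of 4 was not tested against these shares. With the whole lists, 0 regions of the windows were Shh-specific.

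The region in intron 2 of Lmx1b (chr2:33594219-33595515), 45.4 kb after the start, was also called in all libraries but WT rep2. It ranked 2793 (7.15%) in WT rep1, 2160 (38.6%) in Shh-/- rep1 and 10569 (57.3%) in Shh-/- rep2. By rank it stood higher in Shh-/- rep1 than in WT rep1, while by percentage of the list the order was the reverse. Limited to 5589 peaks, the lists of WT rep1 and of Shh-/- rep1 held it and the other two did not.

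The region beyond the 3′ end (chr2:33543505-33545004), 16.5 kb past the end of the gene, was called in 3 libraries, WT rep1, WT rep2 and Shh-/- rep2. It ranked 8512 (21.8%) in WT rep1, 6536 (54.6%) in WT rep2 and 10568 (57.3%) in Shh-/- rep2. None of the lists held it among its 5589 best peaks.

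The libraries that lacked 1 of these regions were the ones with the shorter lists, and their missing calls differed in base composition across the series. Regions missing from Shh-/- rep1 alone had a median GC content of 68.5% (5034 regions, quartiles 62.5% and 73%), and regions missing from WT rep2 alone had a median of 49% (1012 regions, quartiles 43.5% and 56%). Regions called in all 4 libraries had a median of 62%. The sequences above had 67% beyond the 3′ end of Lmx1b, missing from Shh-/- rep1, and 47.5% and 64.5% in the farther upstream and intron 2 regions, missing from WT rep2. The part of GC content in the calls of single regions was not tested.

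**Figure D2:**
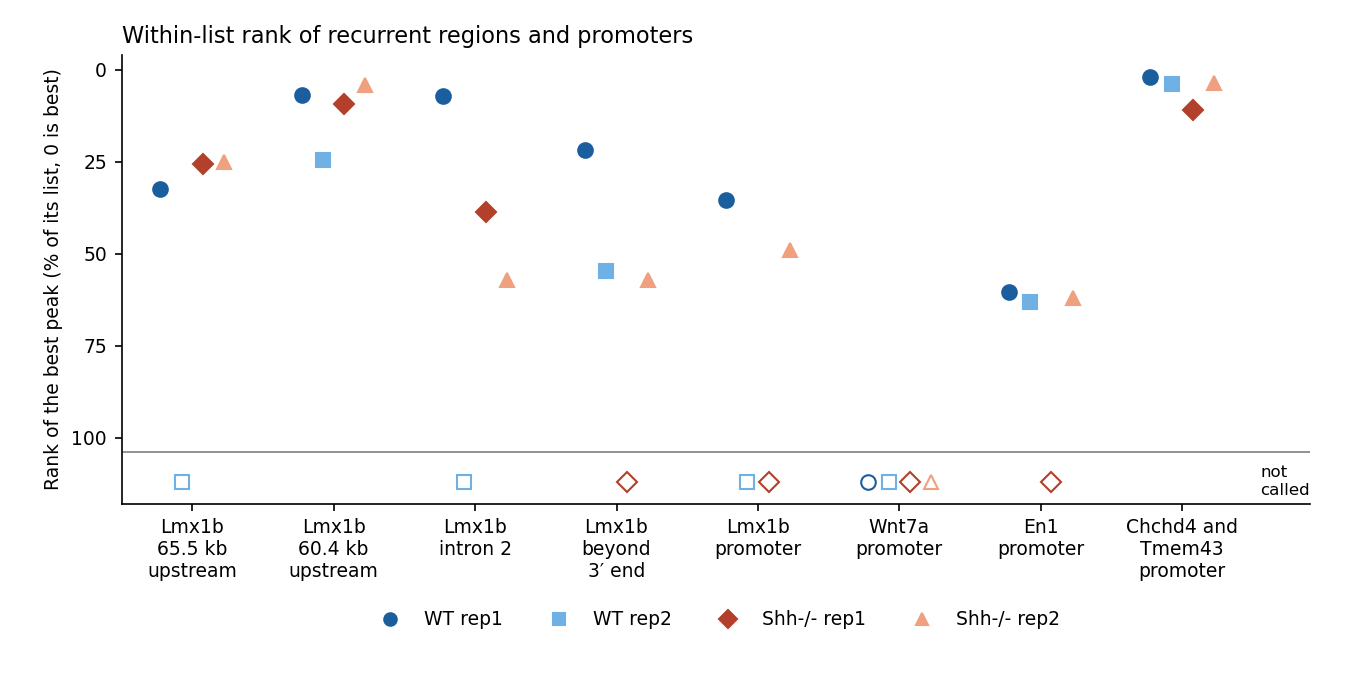
Rank of the best peak as a percentage of its list (0 is best, axis inverted) at the 4 Lmx1b regions called in 3 or 4 libraries, at the promoters of the 3 genes, and at the promoter shared by Chchd4 and Tmem43 in the Wnt7a window. Filled symbols are libraries with a peak and open symbols below the line are libraries without one. The region 60.4 kb upstream of Lmx1b is in all 4 lists between 4.12% and 24.4%, and the Wnt7a promoter is in none.

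The Lmx1b promoter was called in 2 libraries. A promoter was the stretch from 2 kb before to 1 kb after a transcription start. WT rep1 had 4 peaks there, the best at rank 13824 (35.4%), and its 4 peaks lay between 0.008 and 1.85 kb before the start by their summits. Shh-/- rep2 had 1 peak, at rank 9052 (49%), which spanned the RefSeq start that lies 587 bp before the GENCODE start. In WT rep2 and Shh-/- rep1 the nearest peaks were 35.5 and 45.3 kb away, both inside intron 2. A promoter peak was called in 60.4% of the 21938 protein-coding genes in WT rep1, in 39.2% in WT rep2, in 17.3% in Shh-/- rep1 and in 51.3% in Shh-/- rep2, and 11.8% of genes had the same calls as Lmx1b. Limited to its 5589 best peaks, neither list held a peak at the Lmx1b promoter. The divergent antisense gene C130021I20Rik starts within the same stretch, so a peak there cannot be given to 1 of the 2 genes.

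By promoter rank, the genes most like Lmx1b among the 2582 others with its calls were F11r, Atp6v0b and Bmp6. Their mean absolute differences from Lmx1b were 0.137, 0.578 and 1.11 percentage points over the 2 libraries with a call. The best Lmx1b promoter peaks shared their scores with ranks 13699 to 15185 in WT rep1 and 8993 to 9726 in Shh-/- rep2. These ties span more than the differences, and tied peaks were ordered by position, so the choice of genes rests partly on position. F11r encodes a junctional adhesion molecule, Atp6v0b a subunit of the vacuolar proton pump and Bmp6 a BMP ligand.

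The remaining peaks of the Lmx1b window rested mostly on 1 library. WT rep1 alone accounted for 40 of the 55 regions, Shh-/- rep2 alone for 3, WT rep2 alone for 1 and Shh-/- rep1 alone for 0, and 7 regions were shared by WT rep1 and Shh-/- rep2. Of the 24 gene body peaks of WT rep1, 19 had their summit in an intron and 4 in an exon, and the other one had it just before the start. The peaks of this library over the whole window, neighbouring genes included, were of middle rank, with a median of 51.4%. The single intron peak of WT rep2 (chr2:33604824-33605059, rank 10368, 86.6%) lay 35 bp from a region called in WT rep1 and Shh-/- rep2, so that neighbouring calls at that site were counted apart.

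Wnt7a covers chr6:91363981-91411363 on the minus strand, 47.4 kb with 4 exons. Its window held 15 peaks in WT rep1, 1 in WT rep2, 1 in Shh-/- rep1 and 6 in Shh-/- rep2, and its promoter was called in 0 of 4 libraries. Of all protein-coding genes, 37.9% had no promoter peak in any library. Over the gene body itself there was 1 peak in WT rep1 and 1 in Shh-/- rep2, and 0 in the other libraries. The peak of WT rep1 (chr6:91363779-91364328, rank 25324, 64.8%) lay in exon 4, at the 3′ end of the gene. The peak of Shh-/- rep2 (chr6:91409585-91409903, rank 14321, 77.6%) lay in intron 1, 1.46 kb from the start. It also overlapped the promoter of another gene, Gm30437, and 1570 peaks of that list shared its score. Both gene body peaks were weak calls for their libraries, and neither was found in a second library.

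The region of the Wnt7a window called in 4 of 4 libraries belongs to other genes. It is the promoter that Chchd4, which encodes a mitochondrial import protein, shares with Tmem43, which encodes a protein of the inner nuclear membrane. It lay 62.3 kb upstream of Wnt7a (chr6:91473015-91474485) and ranked 776, 469, 603 and 634 in WT rep1, WT rep2, Shh-/- rep1 and Shh-/- rep2. These ranks are 1.99%, 3.92%, 10.8% and 3.43% of the lists, all among the stronger calls, and the 4 summits lay within 44 bp. It was the single peak of the window in WT rep2 and in Shh-/- rep1. The nearest peak to the Wnt7a start was 62.0 kb away in both of those libraries and 29.3 kb away in WT rep1.

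Of the 17 regions of the Wnt7a window, 11 were called in WT rep1 alone and 2 in Shh-/- rep2 alone. The 3 regions called in those 2 libraries together included the promoter of 1810044D09Rik and 4930471M09Rik, at rank 14248 (36.5%) in WT rep1 and 11775 (63.8%) in Shh-/- rep2. By position, 8 of the 17 regions lay between genes, 3 at promoters, 1 in an intron of Xpc and 5 in exons of Wnt7a, Fbln2, Tmem43 and Xpc. The 3 promoter regions included the intron 1 peak of Wnt7a, counted at the promoter of Gm30437.

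En1 covers chr1:120602418-120607992 on the plus strand, 5.575 kb with 2 exons. Its window held 2 peaks in WT rep1, 1 in WT rep2, 0 in Shh-/- rep1 and 1 in Shh-/- rep2. In 3 libraries a peak lay in exon 1 and counted as a promoter peak, with calls like those of 21.1% of protein-coding genes. WT rep1 had it at chr1:120603371-120603868 (rank 23619, 60.4%), WT rep2 at chr1:120602943-120603233 (rank 7554, 63.1%) and Shh-/- rep2 at chr1:120603326-120603743 (rank 11429, 61.9%). As percentages of their lists the 3 calls were close, but tied peaks were ordered by position, which sets part of that closeness. Their ties ran over ranks 23486 to 28320 in WT rep1, 7510 to 8857 in WT rep2 and 11386 to 12482 in Shh-/- rep2. Of the 3 calls, 0 were among the 5589 best peaks of their lists. The peak of WT rep2 ended 92 bp before the region that the other 2 libraries shared, so no base was called in all 3. The peaks began 0.525 to 0.953 kb after the start, and with a promoter of 500 bp on either side of the start En1 had a promoter peak in 0 libraries. In Shh-/- rep1 the nearest peak was 139 kb away, outside the window.

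The other peak of the En1 window was in WT rep1 alone (chr1:120614404-120614684, rank 33911, 86.8%), 12.1 kb after the start. No peak was called in the 100 kb upstream of En1, where Marco, a scavenger receptor gene of macrophages, starts, in any library. The genes most like En1 by promoter rank, among the 4630 others with its calls, were Gria2, Palm2 and Dcbld1, with mean absolute differences of 3.48, 3.50 and 3.61 percentage points over 3 libraries. The ties at the En1 promoter peaks span more than these differences, so this choice also rests partly on position. Gria2 encodes a glutamate receptor subunit.

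The mesenchymal gene was then set against the ectodermal genes within each library, per length of window. Lmx1b had 18.6 peaks per 100 kb in WT rep1, 1.07 in WT rep2, 1.07 in Shh-/- rep1 and 5.01 in Shh-/- rep2. Wnt7a had 6.06, 0.404, 0.404 and 2.43 peaks per 100 kb in the same order. En1 had 0.973, 0.486, 0 and 0.486 peaks per 100 kb. Lmx1b was thus the densest of the 3 windows in every library. Wnt7a was above En1 in 3 libraries and below it in WT rep2, where each window held 1 peak.

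The density of the Lmx1b window minus the mean of the ectodermal windows was 15.1, 0.628, 0.871 and 3.55 peaks per 100 kb, higher in 4 of 4 libraries. The mean difference was 5.03 peaks per 100 kb (exact sign permutation test over libraries, two-sided, p = 0.13, the smallest value that 4 libraries allow). With each list limited to its 5589 best peaks the mean difference was 0.513 (exact sign permutation test, p = 0.13). The test could not pass 0.05, and without WT rep1 the mean difference fell to 1.68 peaks per 100 kb. Its units were libraries, so it cannot speak to mesenchymal against ectodermal genes as classes. The windows also count peaks of neighbouring genes. At equal list size the Chchd4 and Tmem43 promoter was the only region called in the ectodermal windows.

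Against the same measure over all protein-coding genes, Lmx1b was denser than 98.4% of genes in WT rep1, 60.8% in WT rep2, 83.5% in Shh-/- rep1 and 93.8% in Shh-/- rep2. Wnt7a was denser than 77.6%, 31.2%, 52.2% and 75.2% of genes. En1 was denser than 32.3%, 40.4%, 0% and 29.7% of genes. The medians over all genes were 1.95, 0.853, 0.375 and 1.25 peaks per 100 kb, so that En1 lay below the median in each library and Lmx1b above it in each. Wnt7a was above the median in 3 libraries, with the Chchd4 and Tmem43 promoter as its single peak in 1 of them.

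**Figure D3:**
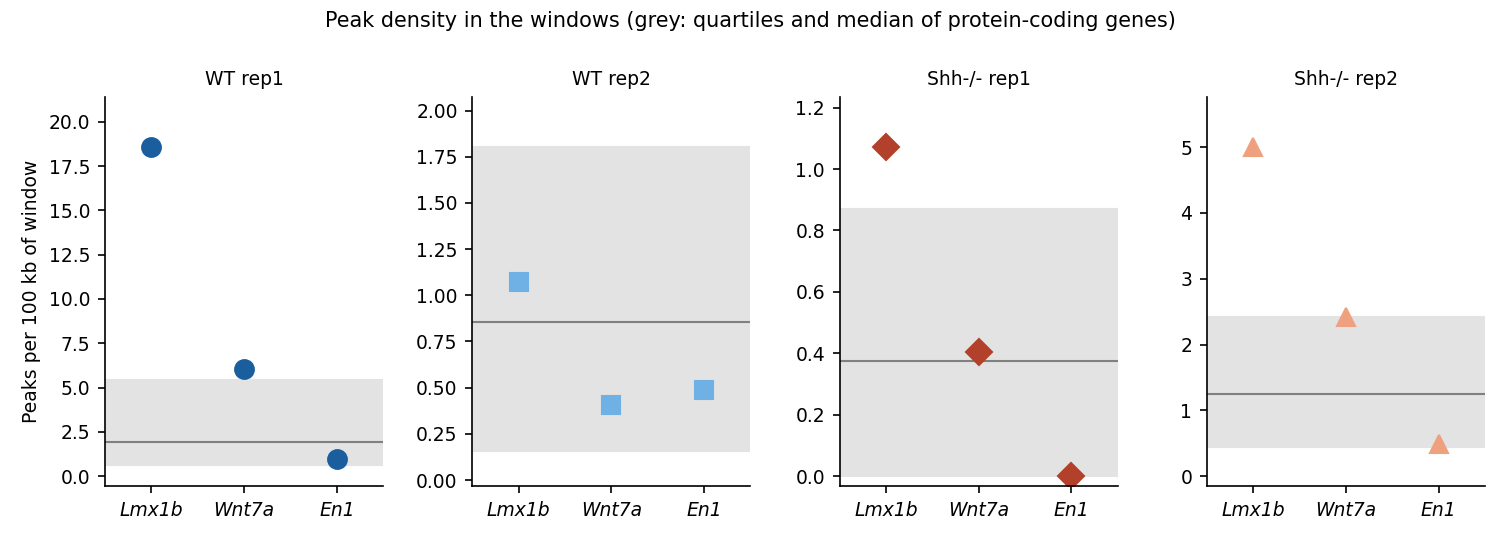
Peaks per 100 kb in the windows of the 3 genes, with a panel and an axis of its own for each library. The grey band spans the quartiles and the grey line is the median of 21938 protein-coding genes. Lmx1b, at 18.6, 1.07, 1.07 and 5.01 peaks per 100 kb, is the highest of the 3 genes in each panel.

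WT and Shh-/- were compared by the number of peaks in the windows, to ask whether loss of SHH went with fewer calls at these genes. All 3 windows together held 37 ± 45.3 peaks in WT and 12.5 ± 12 in Shh-/- (SD, n = 2 each). The difference was 24.5 peaks (p = 0.667, two-sided exact permutation test), below the SD of WT and above that of Shh-/-. The Lmx1b window held 27.5 ± 34.6 and 8.5 ± 7.78 peaks (SD, n = 2 each; exact permutation test, p = 1). The Wnt7a window held 8 ± 9.90 and 3.5 ± 3.54 peaks (SD, n = 2 each; exact permutation test, p = 1). The En1 window held 1.5 ± 0.707 and 0.5 ± 0.707 peaks (SD, n = 2 each; exact permutation test, p = 0.667). In none of these did the genotypes separate, and 2 libraries against 2 allow no p below 0.333.

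The number of peaks in a window was highest in the longest list, WT rep1, and next in Shh-/- rep2, which was level with WT rep2 at En1. WT rep2 and Shh-/- rep1 held the same number at Lmx1b and at Wnt7a with lists of 11973 and 5589 peaks. Per 10000 peaks of its list, the Lmx1b window held 13.3 peaks in WT rep1, 2.51 in WT rep2, 5.37 in Shh-/- rep1 and 7.58 in Shh-/- rep2, so that both Shh-/- libraries lay between the WT libraries. The Wnt7a window held 3.84, 0.835, 1.79 and 3.25 peaks per 10000, with the same order of libraries. The En1 window held 0.512, 0.835, 0 and 0.542. On this scale the 3 windows together differed by 1.65 peaks per 10000 (exact permutation test, p = 1), and the Wnt7a difference turned to -0.183 (exact permutation test, p = 1). Without WT rep1 the WT minus Shh-/- difference over the 3 windows was -7.5 peaks, so 1 library set the direction.

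WT-specific regions, which both WT lists and neither Shh-/- list held, numbered 0 in the 3 windows, and Shh-specific regions, the reverse, also numbered 0. Of all regions in the series, 2.09% were WT-specific and the Shh-specific share was 0.396%. Regions called in all 4 libraries numbered 2, the nearer upstream region of Lmx1b and the Chchd4 and Tmem43 promoter, 2.67% of the 75 against 7.97% of all regions. A further 3 regions, all of the Lmx1b window, were called in 3 libraries, 11 in WT rep1 and Shh-/- rep2, and 59 in 1 library. WT rep1 alone accounted for 52 of the 75 regions (69.3%), against 51.6% of all regions of the series.

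The GLI consensus TGGGTGGTC with at most 1 mismatch, the homeodomain core TAATTA and the TCF/LEF site CTTTGAT were searched on both strands in the 200 bp around each best summit. GLI proteins are the transcription factors of the HH pathway, TCF/LEF proteins those of canonical WNT signaling, and LMX1B and EN1 are homeodomain proteins. A GLI match was present in 7 of the 75 regions (9.33%), all 7 in the Lmx1b window, against 5.62% of all regions. That window held 55 of the 75 regions. Among the 7, chr2:33584389-33585406 was called in 2 libraries and each of the others in 1. A TCF/LEF match was present in 4 regions (5.33%), against 2.39%, and a homeodomain match in 2 regions (2.67%), against 4.03%. The farther upstream region of Lmx1b printed above held a homeodomain match at chr2:33705969-33705974 and a TCF/LEF match at chr2:33706015-33706021, and the other homeodomain match was in the intron 1 peak of Wnt7a. The other 3 distal sequences and the 250 bases before each start held 0 matches to any of the motifs, which were present in 5.79% (GLI), 4.84% (homeodomain) and 3.21% (TCF/LEF) of all promoters of that length.

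The makeup of the tissue was read from promoter calls of marker genes. Of 14 limb mesenchyme markers, 14, 9, 6 and 11 had a promoter peak in WT rep1, WT rep2, Shh-/- rep1 and Shh-/- rep2. Prrx1, Lhx2, Fgf10 and Tbx15 had one in all 4 libraries, 4 of 14 genes against 16.1% of all protein-coding genes. Tbx5 and Hand2 had one in WT rep1 alone, Prrx2 in both WT libraries alone, and Meox2 in WT rep1 and Shh-/- rep2. Of 18 markers of limb ectoderm and of its apical ridge, 10, 2, 0 and 5 had one, a smaller share than of all protein-coding genes in each library. The epithelial genes Cdh1, Trp63, Krt5, Krt14 and Grhl2 and the ridge genes Fgf8 and Sp6 had none in any library. These 7 of 18 are near the share of all protein-coding genes without a promoter peak, 37.9%. Other markers of the list were called, Tfap2a in 3 libraries and Krt18, Esrp2, Grhl3 and Cldn6 in 2 each. Grhl3, like Prrx2, was called in both WT libraries alone, a count not made over all protein-coding genes. Wnt7a and En1 belong to the same cell layer as the ectoderm markers. The part of the layer's share of cells in the calls at Wnt7a and En1 was not tested. Endothelial markers had a promoter peak in 2, 0, 0 and 2 of 8 genes, blood markers in 3, 1, 0 and 1 of 6, markers of migrating muscle progenitors in 3, 1, 0 and 3 of 4, and neural crest markers in 3, 1, 0 and 1 of 4. Of 8 broadly used genes, 8, 6, 5 and 7 had one.

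Genes that carry and receive the dorsal-ventral signals were read in the same way. Of 33 genes, 32 had a promoter peak in WT rep1, 22 in WT rep2, 10 in Shh-/- rep1 and 28 in Shh-/- rep2. Among all protein-coding genes the shares were 60.4%, 39.2%, 17.3% and 51.3%, so that most genes of any kind were also called in the 2 longer lists. Of the 33 genes, 0 were called in both libraries of 1 genotype and in none of the other. The same count was not made over all protein-coding genes. Of all regions, 2.09% were WT-specific and 0.396% Shh-specific, so a count of 0 does not set these 33 genes apart. Among 13 genes of WNT secretion and reception, 12, 8, 3 and 12 were called. The receptors Fzd1 and Fzd7 and the feedback inhibitor Axin2 were called in all 4 libraries, and Fzd7 ranked 1896, 2104, 386 and 1959. Porcn, the acyltransferase that WNT ligands need for secretion, was the gene called in none.

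Among 6 LIM homeodomain genes and their cofactors, 6, 4, 2 and 4 were called. Lhx2, which acts in the limb mesenchyme, ranked 1192, 566, 1168 and 2057, and the LIM-only gene Lmo4 was also called in all 4. Lmx1a, the paralogue of Lmx1b, was called in WT rep1 alone, at rank 15276. Among 9 genes of the BMP input to the ventral ectoderm, 9, 7, 2 and 9 were called, with Smad4, the common mediator, in all 4 at ranks 2251, 2583, 1902 and 2559. Among En2, the paralogue of En1, and 4 Groucho-type corepressors, 5, 3, 3 and 3 were called. The corepressor Tle4 ranked 181, 188, 227 and 82, among the strongest promoters of each list, and Tle1 and Tle3 were also called in all 4, while En2 was called in WT rep1 alone.

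**Figure D4:**
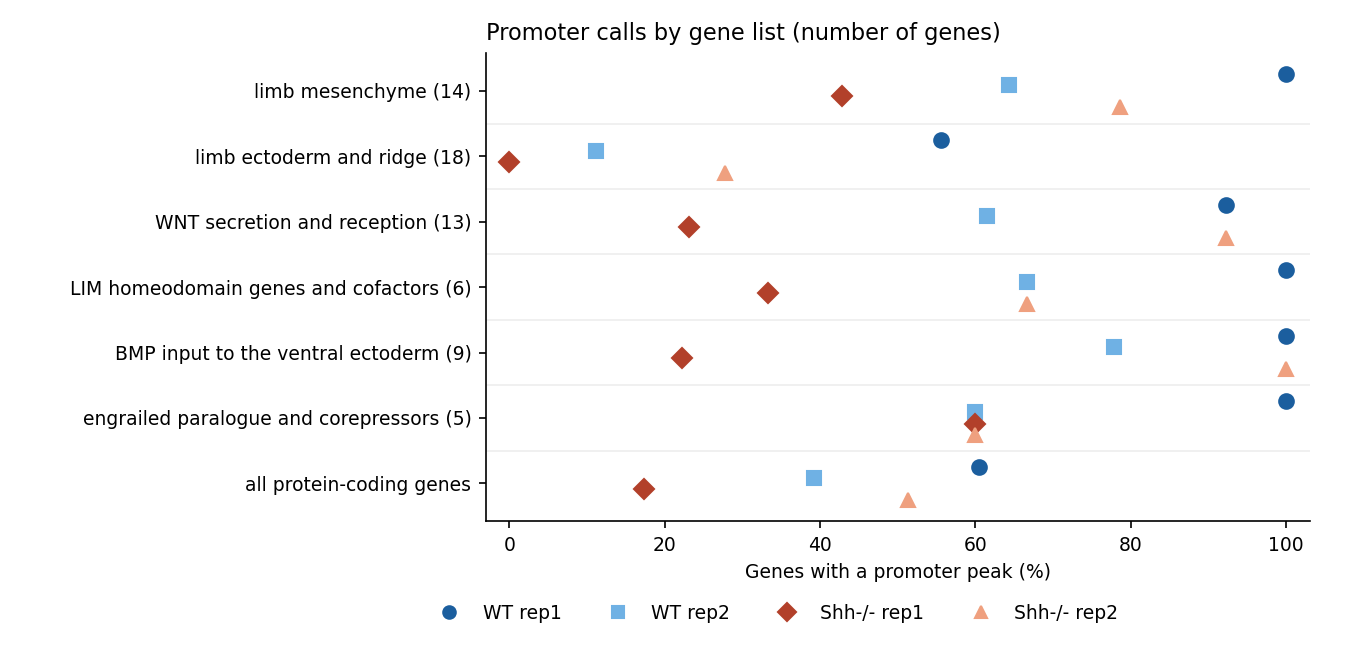
Share of genes with a promoter peak (%) in each library, by gene list with the number of genes in brackets, and over all protein-coding genes. Each symbol is 1 library. In each library the ectoderm and ridge list lies below all protein-coding genes, with 10, 2, 0 and 5 of 18 genes called.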

How the data were processed

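ATAC-seq was made from 2 WT and 2 Shh-/- posterior forelimb buds, grouped by the genotype in the sample titles. The authors sequenced paired ends and called peaks in each library with MACS2 (q-value of at most 0.05, fixed windows of 200 bp). The submitters' processing notes name mm10, Bowtie2 2.2.5 and MACS2 2.1.0, while read filters and any Tn5 shift are not given in the sources used here. The deposited score of a peak is, by the caller's format, 10 times its highest −log10 q-value, a scale the files do not state, and it was used only for ranks within a list. Differences in how deep and how clean the libraries were can move the number of peaks called.

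Regions, ranks, promoter calls, sequences and motif matches were computed with Python 3.11.15, NumPy 2.4.6 and SciPy 1.17.1 (figures with matplotlib 3.10.9) from GENCODE M21 (basic set), RefSeq and GRCm38.p6. Scripts were tested on simulated peak lists. Group means were compared by two-sided exact permutation tests over libraries. Their p-values speak only to these libraries, in which differences between embryos and in library quality are not separated. The study's limma fit to peak signal was not repeated, since the lists hold no signal per library. The alternatives were equal list size, a score of at least 50, summit overlap, windows of 50 kb, promoters of 500 bp on either side, scaling per 10000 peaks, a replicate block, and leaving out each library.

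The 3 genes, the gene lists and the motifs were chosen with earlier results of these data known. Besides the 3 genes, the genes named were those starting in the windows, genes of the lists called in all or no libraries, and the 3 genes most like each member by promoter rank. Lmx1a and En2 (as paralogues), and Fbln2 and Xpc (which reach into the Wnt7a window), were named after their values were seen. The mesenchyme and ectoderm markers called in some libraries only were also named after their values were seen.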

Additional observations from a re-analysis of the deposited data

How the results depend on the processing

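Under the alternatives 7 values changed sign, and the cause was not tested. Values that kept their sign could still shrink: with a score of at least 50 the WT minus Shh-/- difference was 4.5 peaks for the 3 windows, 3.5 for Lmx1b and 1.5 for Wnt7a, and the density difference was 1.90 peaks per 100 kb, against 0.513 at equal list size. At equal list size the WT minus Shh-/- difference was -1 peak for the 3 windows, -1 for Lmx1b, 0 for Wnt7a and 0 for En1. Scaling per 10000 peaks gave -0.183 for Wnt7a, and a score of at least 50 gave -0.5 for En1. Without WT replicate 1 the difference was -7.5 peaks for the 3 windows, -5.5 for Lmx1b and -2.5 for Wnt7a. Leaving out 1 library gave -7.5 to 56.5 peaks for the 3 windows, -5.5 to 43.5 for Lmx1b, -2.5 to 11.5 for Wnt7a, 0.5 to 1.5 for En1 and 1.68 to 6.50 peaks per 100 kb for Lmx1b minus the ectodermal genes.

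The 75 regions became 4 at equal list size, 23 with a score of at least 50, 47 in windows of 50 kb and 23 to 75 on leaving out a library (23 without WT replicate 1). Regions called in every library were 0 in windows of 50 kb and 2 to 4 on leaving out a library (4 without WT replicate 2). WT-specific regions ranged from 0 to 52 (52 without WT replicate 2, 2 without WT replicate 1, 1 without Shh-/- replicate 2). Shh-specific regions were 1 at equal list size and ranged from 0 to 5 on leaving out a library (5 without Shh-/- replicate 1, 2 without WT replicate 1). Libraries with a promoter peak fell to 0 for Lmx1b and 0 for En1 at equal list size. For En1 they were 1 with a score of at least 50, 0 with 500 bp either side of the start and 1 with the summit inside the promoter. RefSeq starts, an alternative chosen after seeing the data, changed no promoter call.

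With a replicate block (labels exchanged only within a replicate number) the differences remained 24.5, 19, 4.5 and 1 peaks for the 3 windows, Lmx1b, Wnt7a and En1 (exact permutation test, p = 1 each, with 0.5 the smallest possible). The replicate numbers are only names here, and with 2 per genotype their pairing was not checked. Peak lists without depth limit each statement on a missing peak to the call itself.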
